A study of Homo sapiens with 6 samples.

Results

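The kinesins are motor proteins that walk along microtubules or take them apart. Their genes were chosen by name: every protein-coding gene of the deposited table whose symbol begins with KIF followed by a digit or by C was taken, and KIFBP, a kinesin-binding protein and not a motor, was left out. This gave 34 of the 13696 gene identifiers in the table. They were sorted by the known role of the protein into 12 mitotic kinesins, 15 transport kinesins and 7 ciliary and other kinesins. The lists were made with earlier results of these data known. KIF2A, which also works at spindle poles, was placed in the last group and is not counted with the mitotic kinesins. Of 42 kinesins listed for these roles, KIF2B, KIF4B, KIF1A, KIF5A, KIF12, KIF19, KIF25 and KIF26A had no row in the table used here.

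The cells were of the human line hTERT RPE-1, derived from retinal pigment epithelium and made immortal with telomerase. One group of 3 libraries came from untreated cells, for which the labels name no vehicle. The pre-dose group of 3 libraries came from cells given 25 nM camptothecin, a drug that traps topoisomerase I on DNA, for 1 hour, after which the drug was removed and the cells were left for 24 hours before harvest. Messenger RNA was selected by its poly(A) tail and sequenced. Both groups were the same line, and 1 dose and 1 harvest time were measured. Nothing in the labels states that the replicates of a group were separate cultures, and p-values then reflect the spread of these 3 libraries a group, which may be technical.

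A dividing cell uses many kinesins to build the spindle, slide and shorten its microtubules, move chromosomes and split the cell at cytokinesis. The mitotic kinesins are made mainly in late S phase, G2 and mitosis, and their genes belong to a larger set that is repressed when p53 and its target CDKN1A are active. The transport kinesins work throughout the cell cycle, carrying vesicles, mitochondria and other cargo along microtubules. In RNA from a whole culture, fewer cells of a type and less RNA per cell cannot be told apart.

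Levels are in CPM, read counts scaled to a common library total, and differences are pre-dose minus untreated on the log2(CPM + 1) scale, which understates the change of low genes. The effective total behind each library was 26336941 to 31780391 counts, so that 3 counts came to 0.0944 to 0.114 CPM. All 34 kinesins passed the filter of a mean of at least 1 CPM that left 13616 genes for testing. Both replicate 1 libraries stood apart from the other 4. In a fit that weights libraries by their agreement, the untreated replicate 1 library had a weight of 0.23 and the pre-dose replicate 1 library 0.199, against 1.26 to 2.86 for the others. The replicate 1 libraries differed from replicates 2 and 3 at an adjusted p under 0.05 (limma) in 40.8% of all genes, with 20.3% higher and 20.6% lower. Results for the mitotic and the transport kinesins as groups are therefore given over all 6 libraries, in each replicate pair, and in replicates 2 and 3 alone. For many single genes only some of these values are printed. Of 10 markers of pigment epithelium, 5 were in the table used here. KRT8 was at 869 to 979 CPM, KRT18 at 413 to 461, MITF at 44.9 to 50.6, OTX2 at 15.8 to 18.4 and BEST1 at 4.14 to 5.40, whereas RPE65, RLBP1, TYR, PMEL and TTR, among them the markers that define the mature pigment epithelium, had no row.

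The 12 mitotic kinesins shared one direction within each replicate pair, and that direction was not the same in all pairs. All 12 were lower after the pre-dose in the replicate 2 pair and in the replicate 3 pair, with median log2 differences of −0.52 and −0.35. All 12 were higher after the pre-dose in the replicate 1 pair, with a median of 0.17. The medians of all genes tested in these pairs were −0.0024, 0.0012 and −0.0039 in the same order. Of all genes tested, 16.2% were higher in the replicate 1 pair and lower in the other two pairs. Over all 6 libraries none of the 34 kinesins passed an adjusted p of 0.05 in limma, where 0% of all genes did so. None had an unadjusted p under 0.05 in that fit, and the lowest among the mitotic kinesins was 0.124, for KIF18A. The fit with a replicate block and voom on recovered counts called none of the 34 either. The median difference of the mitotic kinesins over all 6 libraries was −0.22, with a range of −0.29 to −0.13. It was −0.41 without pre-dose replicate 1 and −0.08 without pre-dose replicate 2.

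The promoters of these genes are shown because the genes shared a direction within each pair and because 2 short motifs are known from promoters of genes expressed in G2 and mitosis. One is the cell cycle genes homology region (CHR), searched as TTTGAA or TTCGAA, and the other is the CCAAT box. Both were searched on both strands in windows of 300 bases, 250 before the RefSeq transcription start and 50 from it, and the 2 motifs share no letters where they were found. The stretches below are from RefSeq on GRCh38.p14, are written 5′ to 3′ on the strand of the gene, and end before the transcript. Capitals mark CCAAT, or ATTGG where it lies on the other strand, and TTTGAA, or TTCAAA where it lies on the other strand. The first 4 are mitotic kinesins and the last is KIF5B, a transport kinesin.
KIF11, chr10:92593030-92593129, plus strand: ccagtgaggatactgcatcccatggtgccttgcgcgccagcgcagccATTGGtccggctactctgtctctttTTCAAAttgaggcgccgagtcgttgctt
KIF4A, chrX:70290004-70290089, plus strand: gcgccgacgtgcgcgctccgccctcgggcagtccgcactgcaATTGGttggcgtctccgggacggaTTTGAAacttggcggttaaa
KIF14, chr1:200620752-200620851, minus strand: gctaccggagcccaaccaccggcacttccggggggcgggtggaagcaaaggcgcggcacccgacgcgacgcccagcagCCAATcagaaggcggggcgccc
KIF18B, chr17:44947774-44947873, minus strand: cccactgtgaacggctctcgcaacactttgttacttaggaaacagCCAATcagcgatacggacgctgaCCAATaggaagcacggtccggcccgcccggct
KIF5B, chr10:32056476-32056575, minus strand: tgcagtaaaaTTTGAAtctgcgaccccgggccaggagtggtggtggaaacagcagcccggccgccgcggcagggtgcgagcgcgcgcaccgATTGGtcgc

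Counting the start as position 1, the CHR letters began at −28 in KIF11, −34 in KIF4A, −35 in KIF15, −27 from the first of the 2 starts of KIF22, −10 in KIF18A and −55 in KIF23. In KIF14, KIF18B and KIFC1 they began at 2, 3 and 5, and in KIF20B at 25 and again at 31, so that these lie beyond the stretches printed above. In KIF5B they began at −140. Of the 12 mitotic kinesins, 10 (83.3%) had the CHR letters, 10 (83.3%) had CCAAT and 9 (75%) had both. KIF2C had neither motif, KIF20A had CCAAT alone, with copies at −94 and −67, and KIF15 had the CHR letters alone. Of the 22 other kinesins, 16 had a promoter in the RefSeq table. Among these, 12.5% had the CHR letters (KIF5B and KIF24), 37.5% had CCAAT and 12.5% had both. Of 9957 tested genes with a promoter there, 15.5% had the CHR letters, 43.7% had CCAAT and 8.56% had both. The motifs were not particular to the kinesins. Of 15 listed partners of the mitotic kinesins, 11 had a promoter there, and 72.7% of these had the CHR letters, 81.8% had CCAAT and 72.7% had both. The transport and other kinesins with no entry were KIF13B, KIF21B, KIF26B, KIF27, KIFC2 and KIFC3. A match describes the letters in a window and not a bound site.

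KIF11 and KIF15 push the spindle poles apart. KIF11 (chromosome 10, 92593286 to 92655395, GRCh38, GENCODE 29) was at 108, 128 and 121 CPM in untreated replicates 1, 2 and 3 and at 127, 86.6 and 98.7 CPM in the pre-dose replicates. The means were 119 ± 10.0 and 104 ± 20.5 CPM (SD, n = 3). The pre-dose value was the higher one in the replicate 1 pair and the lower one in the other two, so that the groups overlapped. KIF15, which can take over part of the work of KIF11, was at 17.2, 21.2 and 20.3 CPM in untreated cells and at 18.6, 15.0 and 18.4 after the pre-dose. The within-pair log2 differences were 0.22, −0.56 and −0.29 for KIF11 and 0.11, −0.47 and −0.14 for KIF15.

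KIFC1 walks towards the minus end, opposite to most kinesins, and focuses spindle poles. It was at 105, 92.9 and 96.6 CPM in untreated cells and at 114, 59.8 and 75.2 CPM after the pre-dose. Its within-pair log2 differences were 0.12, −0.63 and −0.36, and the −0.63 in the replicate 2 pair was the lowest value of any kinesin in any pair.

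KIF4A and KIF22 are chromokinesins, which bind chromosome arms. KIF4A (chromosome X, 70290090 to 70420832) was at 66.4, 60.9 and 63.6 CPM in untreated cells and at 75.0, 45.7 and 49.9 CPM after the pre-dose. KIF22 was at 84.2, 72.7 and 74.1 CPM and at 91.8, 51.9 and 62.8 CPM. In both genes the pre-dose replicate 1 library was the highest of all 6 and the pre-dose replicates 2 and 3 were the lowest. KIF4A has a near copy, KIF4B, and 2.12% of the 100-base windows of the KIF4A transcript are also in KIF4B, where reads could be split.

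KIF2C, KIF18A and KIF18B act at the plus ends of microtubules. KIF2C removes tubulin there and corrects wrong attachments to chromosomes, and KIF18A limits the swaying of chromosomes at the spindle centre. KIF2C was at 90.9, 85.9 and 88.2 CPM in untreated cells, a mean of 88.3 ± 2.51 CPM (SD, n = 3), and at 108, 59.9 and 64.2 CPM after the pre-dose. KIF18A was at 19.0, 22.3 and 22.1 CPM and at 21.5, 14.6 and 17.5 CPM. KIF18B was at 56.2, 48.4 and 51.2 CPM and at 60.7, 33.6 and 38.4 CPM. The spread among pre-dose libraries exceeded that among untreated ones in all 3 genes, with SDs of 26.7 against 2.51 CPM for KIF2C, 3.50 against 1.86 for KIF18A and 14.5 against 3.97 for KIF18B.

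KIF14, KIF20A, KIF20B and KIF23 act in the central spindle and at cytokinesis. KIF14 (chromosome 1, 200551497 to 200620734) was at 41.7, 50.5 and 49.7 CPM in untreated cells and at 50.6, 34.5 and 35.2 CPM after the pre-dose. Its pre-dose replicate 1 library lay beside untreated replicates 2 and 3, and the other pre-dose libraries lay below all untreated ones. KIF23, the motor subunit of centralspindlin, was at 121, 116 and 121 CPM and at 145, 80.1 and 88.5 CPM. KIF20B was at 56.3, 79.4 and 76.6 CPM and at 73.8, 53.3 and 59.0 CPM, with the lowest untreated value again in replicate 1. KIF20A, which brings the chromosomal passenger complex to the central spindle, was at 266, 212 and 214 CPM and at 292, 169 and 185 CPM. Both of its replicate 1 libraries were above the other 4.

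**Figure D1:**
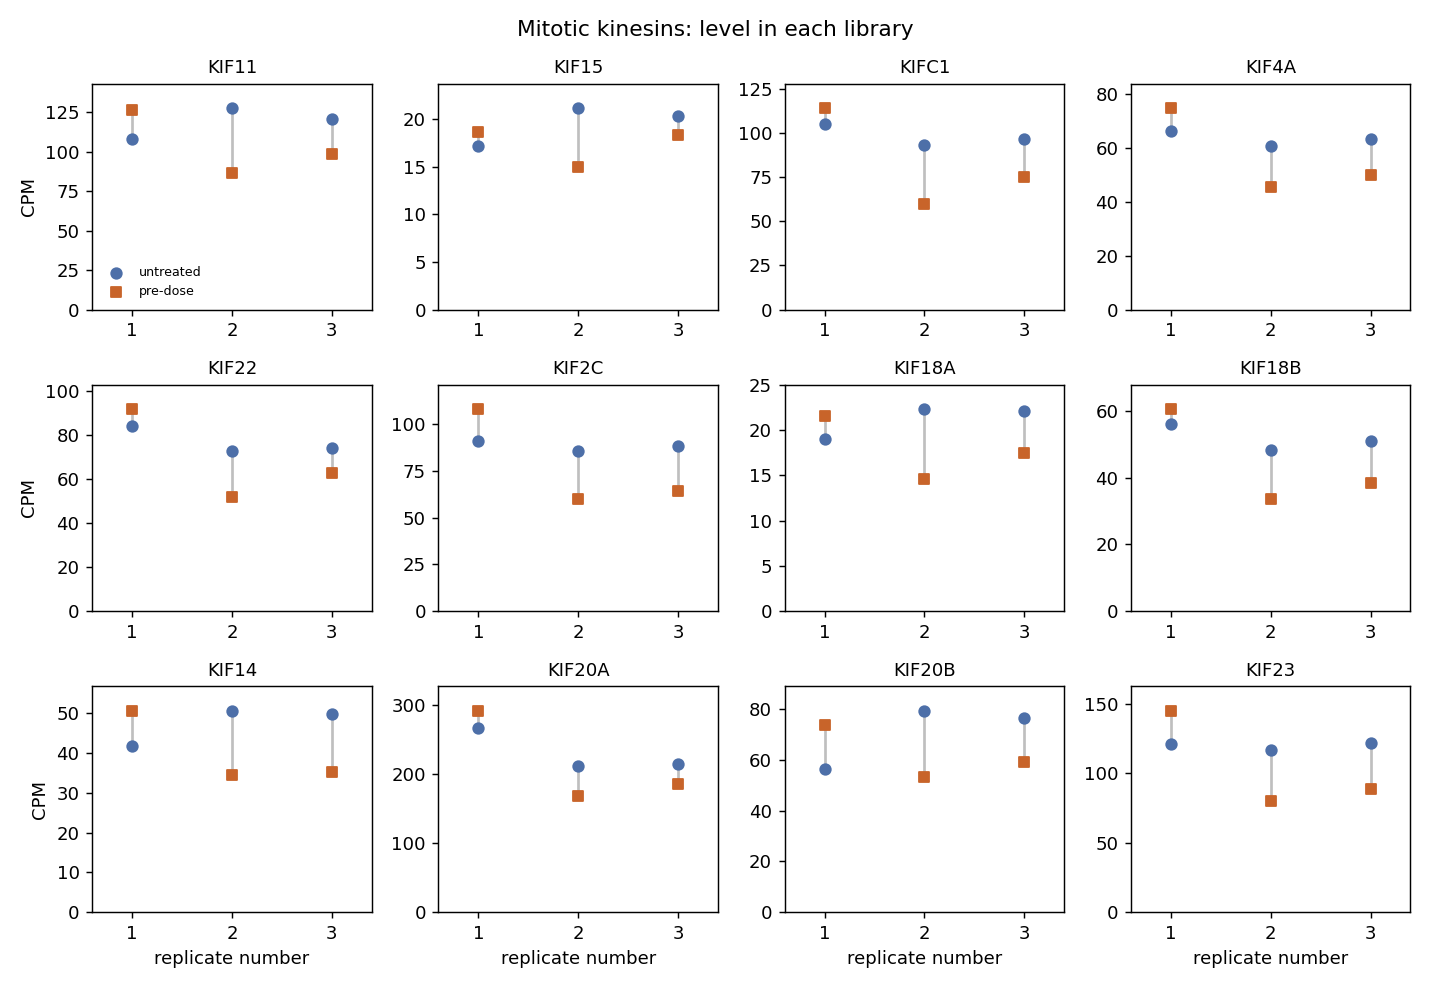
Level of each mitotic kinesin in CPM (vertical axis, starting at 0) in each library by replicate number, with untreated cells as blue circles, pre-dose cells as orange squares and a grey line joining the pair. In all 12 genes the square lies above the circle at replicate 1 and below it at replicates 2 and 3.

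The plot of levels by library shows the same order in nearly every gene. The pre-dose replicate 1 library was the highest of all 6 in 8 of the 12 mitotic kinesins. Pre-dose replicates 2 and 3 were both below all 4 other libraries in 10 of the 12, the exceptions being KIF15 and KIF20B. The share of all genes with either order was not counted, so these counts only describe the group. In both exceptions the untreated replicate 1 library was low as well. No mitotic kinesin had groups without overlap over all 6 libraries, a pattern that 3.19% of all genes showed with the pre-dose lower.

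In replicates 2 and 3 alone, 2 libraries against 2, 14 of the 34 kinesins passed an adjusted p of 0.05 (limma), where 6.36% of all genes did. Of these, 11 were mitotic: 11 of the 12 mitotic kinesins were lower after the pre-dose at that threshold, where 3.47% of all genes were called lower. The difference farthest from 0 was in KIF14, at −0.51 with a 95% interval of −0.62 to −0.41 and an adjusted p of 0.000399. The log2 difference was −0.49 in KIF23 and KIFC1, −0.48 in KIF2C, −0.47 in KIF20B, −0.46 in KIF18B, −0.45 in KIF18A and −0.43 in KIF11. It was −0.37 in KIF4A, −0.36 in KIF22 and −0.27 in KIF20A. KIF15, the one not called, stood at −0.31, with a 95% interval from −0.50 to −0.11 and an adjusted p of 0.069. All 12 were without overlap within these 4 libraries, which was so with the pre-dose lower in 25.8% of all genes. These libraries were singled out with earlier results of these data known, so the counts describe them and are no independent evidence of the direction.

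The difference between the pairs was itself tested, as the replicate 1 pair difference minus that of the replicate 2 and 3 pairs (limma, interaction term). The replicate 1 pair is 1 library a group and has no spread of its own, so the standard errors come from the 4 libraries of replicates 2 and 3 and assume that replicate 1 varies like them. The contrast of replicate 1 with replicates 2 and 3, here and below, was chosen with earlier results of these data known. Its counts therefore describe these libraries and are no independent evidence of a difference. The difference was above 0 at an adjusted p under 0.05 in 8 of the 12 mitotic kinesins, where 0.83% of all genes were called higher and 1.11% in either direction. These were KIF20B, KIF14, KIF23, KIF2C, KIF11, KIF18B, KIF4A and KIF20A. The size was 0.85 in KIF20B with a standard error of 0.09 and an adjusted p of 0.00292, and 0.79 in KIF14 with a standard error of 0.08 and the same adjusted p. The adjusted p was 0.0815 in KIFC1, 0.0852 in KIF18A, 0.118 in KIF22 and 0.293 in KIF15. None of the 22 other kinesins passed it (limma), and 4 of them had an unadjusted p under 0.05, as did 12.3% of all genes.

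The authors' deposited table gives its own comparison, by a model that is not given in the sources used here. Its fold changes are written there as untreated minus pre-dose, and their sign is turned here so that a negative value means lower after the pre-dose. Of the 12 mitotic kinesins, 7 were lower at an adjusted p under 0.05 in the authors' deposited table, where 1.45% of all identifiers were called lower. The log2 fold changes in the authors' deposited table were −0.48 for KIF14 (adjusted p 0.0254), −0.44 for KIF2C, −0.43 for KIF23, −0.40 for KIF18B, −0.39 for KIF20B, −0.37 for KIF18A and −0.34 for KIF11. KIF4A missed the threshold with an adjusted p of 0.0501 in the authors' deposited table, with KIFC1 at 0.0638, KIF22 at 0.114, KIF15 at 0.149 and KIF20A at 0.161. In the limma fit with library quality weights, which takes little from replicate 1, KIF14 was the one kinesin called, at an adjusted p of 0.0374, where 0.793% of all genes were called, 0.485% higher and 0.308% lower.

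Replicate 1 also differed in level. With the treatment in the model, 7 of the 12 mitotic kinesins were higher in replicate 1 than in replicates 2 and 3 at an adjusted p under 0.05 (limma), where 20.3% of all genes were higher. The 7 were KIF20A, KIF18B, KIFC1, KIF22, KIF2C, KIF23 and KIF4A, by 0.37 to 0.52 on the log2 scale. The other 5, KIF11, KIF14, KIF15, KIF18A and KIF20B, had differences of −0.05 to 0.13. In these 5 the untreated replicate 1 library was the lowest of the untreated ones. The count of 7 rose without untreated replicate 1 and fell without pre-dose replicate 1. Each of these fits rests on 1 replicate 1 library, and the share of all genes called in them was not counted.

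The same split was seen in the GC content of the transcript. The 5 genes without a call had the lowest GC of the group, from 34.2% in KIF20B to 41.2% in KIF15, and the 7 with a call had 42.3% in KIF23 to 58.9% in KIF22. Among the 12 mitotic kinesins, Spearman's correlation of the replicate 1 offset with GC was 0.825, and over 13543 genes it was 0.291. The replicate 1 pair difference had a correlation with GC of −0.366 over 13543 genes and of −0.622 among the 12 mitotic kinesins. The replicate 2 and 3 pair differences had correlations of 0.109 and 0.0429 over all genes. All of these are across genes that share the same libraries. The median of the replicate 1 pair difference ran from 0.07 in the decile of genes with the lowest GC to −0.07 in the decile with the highest.

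With the trend in GC removed, all 12 mitotic kinesins were higher in the replicate 1 pair, by 0.07 to 0.28 with a median of 0.16, where 50.8% of all genes were higher. This step was chosen after seeing the data and takes out only the average trend over all genes. The cause of the replicate 1 values was not tested. With the trend removed, 11 of 12 were called lower in replicates 2 and 3 alone, where 4.01% of all genes were, and 9 of 12 passed the test of the difference between pairs, where 0.738% of all genes did. Of the 22 other kinesins, 8 were higher in the replicate 1 pair after the same step.

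**Figure D2:**
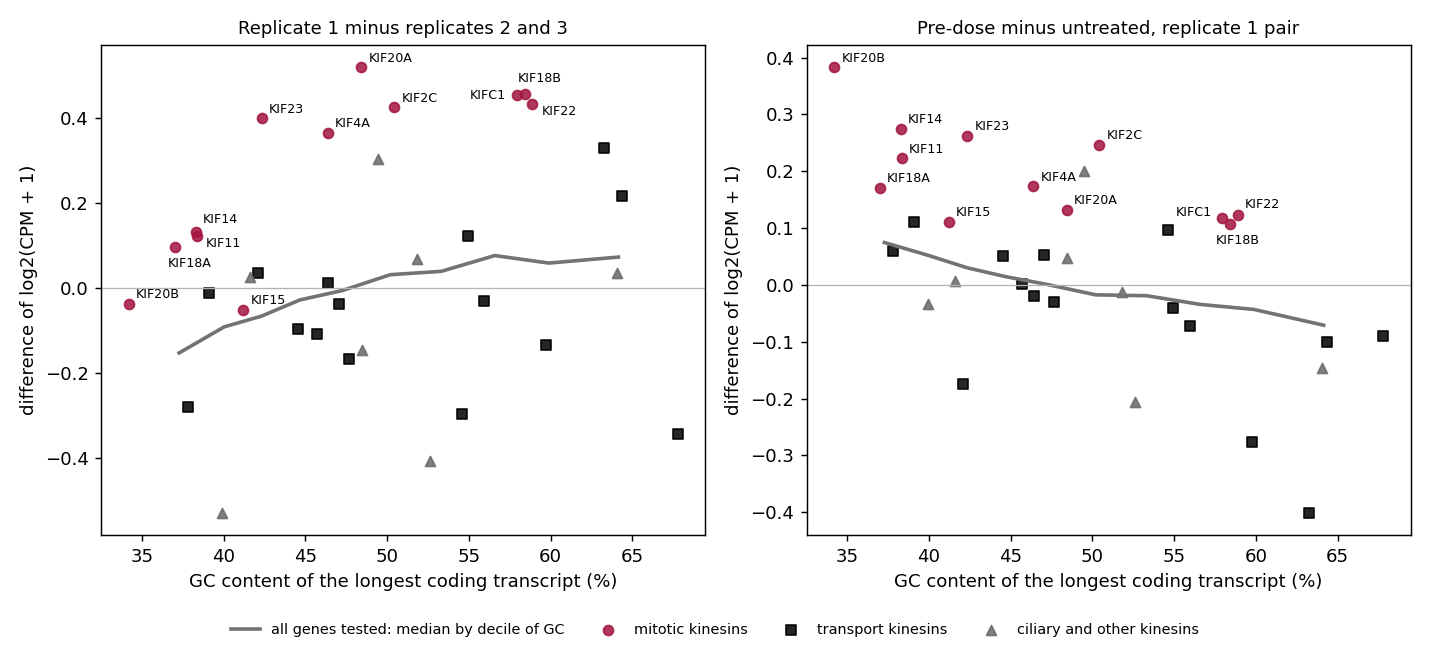
Difference of log2(CPM + 1) (vertical axis) against GC content of the longest coding transcript in percent (horizontal axis) for 34 kinesins, with the median of all tested genes by decile of GC as a grey line. Left, replicate 1 minus replicates 2 and 3, and right, pre-dose minus untreated in the replicate 1 pair. On the right all 12 mitotic kinesins lie higher than the highest point of the grey line, which does not reach the GC of KIF20B.

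The transport kinesins showed no shared direction. Over all 6 libraries their median log2 difference was −0.03, and 0 of 15 passed an adjusted p of 0.05 in limma. None of them had an unadjusted p under 0.05 there. In the fit with a replicate block, in which no gene passed the adjusted threshold, 2 were higher and 1 lower at an unadjusted p under 0.05, against 5.2% and 5.4% of all genes. The medians within the replicate 1, 2 and 3 pairs were −0.03, 0.02 and 0.01. In replicates 2 and 3 alone 1 was higher and 1 was lower, where 2.89% of all genes were called higher and 3.47% lower.

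KIF5B, the widely expressed heavy chain of conventional kinesin, was the one transport kinesin with the pattern of the mitotic ones, higher in the replicate 1 pair and lower in the others. It was at 244, 273 and 266 CPM in untreated cells and at 263, 241 and 243 CPM after the pre-dose. The log2 differences were 0.11, −0.18 and −0.13. In replicates 2 and 3 alone it fell by 0.15, with a 95% interval of −0.22 to −0.08 and an adjusted p of 0.0212 (limma), and the test of the difference between pairs gave an adjusted p of 0.0642. In the authors' deposited table its log2 fold change was −0.13 at an adjusted p of 0.0688. KIF5C, a heavy chain known mainly from neurons, was near 3 CPM in both groups, with means of 2.98 ± 0.235 and 3.26 ± 0.223 CPM (SD, n = 3).

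KIF3A, KIF3B and KIF3C form the heterotrimeric kinesins that carry cargo along cilia and axons with the adaptor KIFAP3. KIF3A was at 17.1, 20.9 and 19.9 CPM in untreated cells and at 17.9, 23.2 and 21.9 CPM after the pre-dose, higher within each pair by 0.06, 0.14 and 0.14, although the groups overlapped. KIF3B was at 68.6, 75.5 and 78.5 CPM and at 67.2, 76.7 and 74.2 CPM. KIF3C was at 103, 103 and 105 CPM and at 98.0, 104 and 99.7 CPM. The 95% interval of the difference over all 6 libraries was −0.21 to 0.15 for KIF3B and −0.17 to 0.08 for KIF3C. KIFAP3 was at 16.7, 21.3 and 19.9 CPM and at 20.0, 23.8 and 20.8 CPM, higher in each pair, with no call over all 6 libraries (unadjusted p 0.203, limma). KIF17, which also works in cilia, was at 0.906 to 2.09 CPM, and its untreated replicate 1 value of 2.09 CPM was the highest of the 6.

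KIF1B, KIF1C, KIF13A, KIF13B and KIF16B belong to the kinesins that move vesicles, endosomes and mitochondria over long distances. KIF1C, by CPM the most abundant of all kinesins measured, was at 408, 371 and 375 CPM in untreated cells and at 397, 362 and 372 CPM after the pre-dose. Its difference over all 6 libraries was −0.03 with a 95% interval of −0.18 to 0.12. KIF1B was at 109, 111 and 116 CPM and at 113, 113 and 115 CPM, with an interval of −0.10 to 0.15. Neither gene separated the groups.

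KIF13A (chromosome 6, 17759183 to 17987623), a motor for recycling endosomes and melanosome cargo, was at 119, 110 and 110 CPM in untreated cells and at 117, 122 and 127 CPM after the pre-dose. The replicate 1 pair lay together, and the other two pairs were higher after the pre-dose. It was higher by 0.17 in replicates 2 and 3 alone, with an interval of 0.09 to 0.26 and an adjusted p of 0.0225 (limma). It was the one kinesin called higher in the authors' deposited table, where 1.61% of all identifiers were called higher, with a log2 fold change of 0.19 and an adjusted p of 0.0375. Over all 6 libraries its difference was 0.11 with an unadjusted p of 0.113 (limma). KIF13B was higher within each pair, by 0.10, 0.12 and 0.27, and KIF16B by 0.00, 0.18 and 0.30. Their adjusted p in replicates 2 and 3 alone was 0.059 and 0.097 (limma), and it was 0.0748 and 0.0549 in the authors' deposited table.

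The remaining transport kinesins were not called by any fit of the pre-dose difference. The minus-end motor KIFC3 had pair differences of −0.10 to −0.07 at means of 145 ± 14.7 and 137 ± 12.3 CPM (SD, n = 3). KIFC2 was at 26.7, 32.7 and 33.5 CPM and at 25.0, 32.4 and 33.5 CPM, with the replicate 1 libraries lowest in both groups. KIF21A, which holds back microtubule growth at the cell edge, was at 15.6 to 17.4 CPM in untreated cells and at 15.3 to 16.4 CPM after the pre-dose. KIF21B was at 1.21 to 1.88 CPM over all 6 libraries. A like sign in every pair was seen in 7 of the 15 transport kinesins, 4 with the pre-dose higher and 3 with it lower, against 15.6% and 16.3% of all genes. A gene on the opposite strand overlaps 17.8% of the exon length of KIFC2, 14.9% of KIF9, 13% of KIF22, 12.7% of KIFC1 and 11.8% of KIF7, and the strand setting of the counting is not given in the sources used here.

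**Figure D3:**
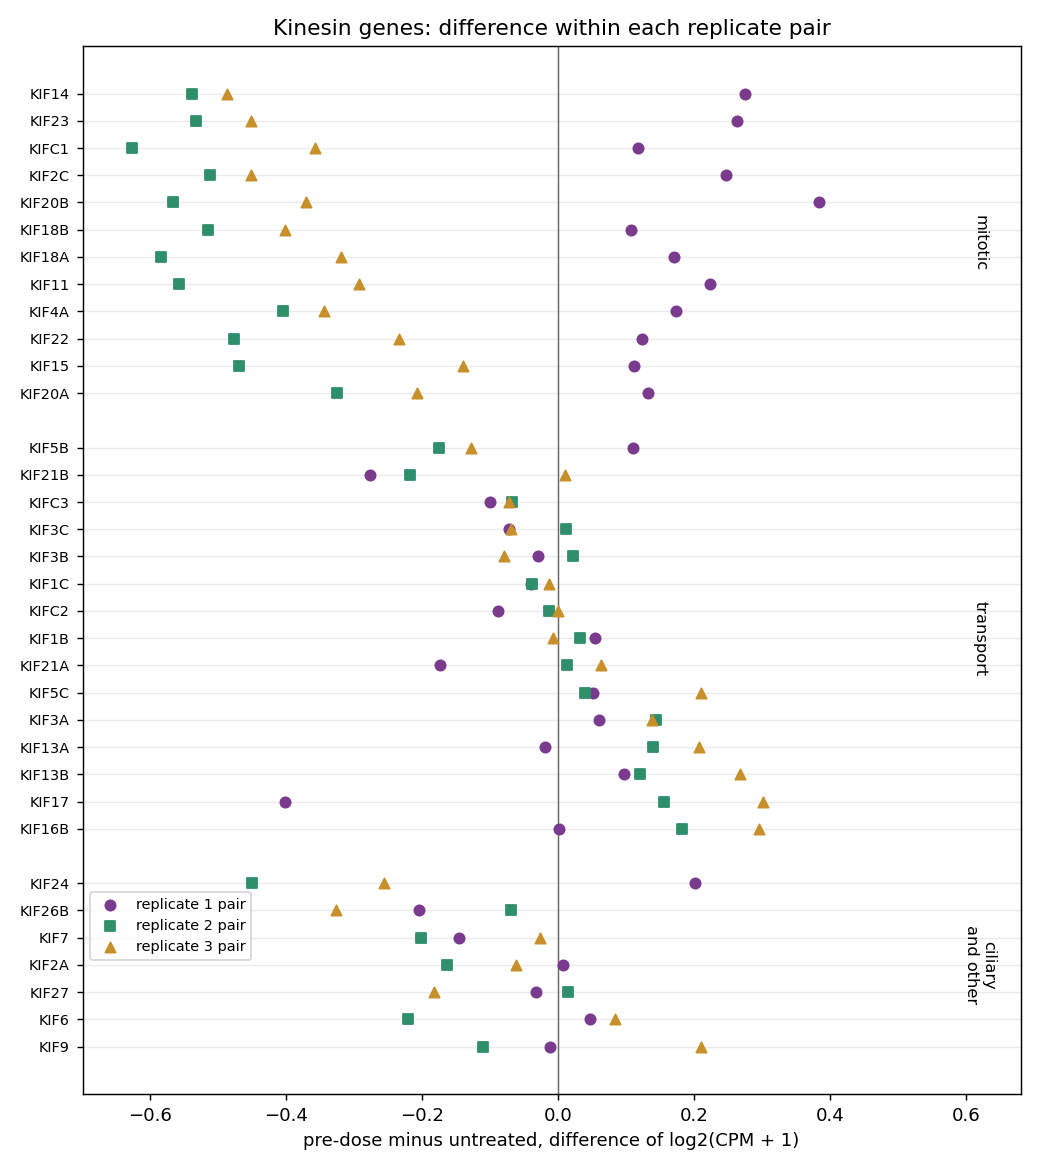
Pre-dose minus untreated difference of log2(CPM + 1) within the replicate 1 pair (purple circles), replicate 2 pair (green squares) and replicate 3 pair (ochre triangles) for each of the 34 kinesins, by group. All 12 mitotic kinesins, KIF5B, KIF24 and, by 0.01, KIF2A have the circle right of 0 and the other marks left of it, while the transport kinesins lie on both sides.

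Among the 7 ciliary and other kinesins, KIF24, which remodels centriolar microtubules and holds back the growth of cilia, was closest to the mitotic ones. It was at 19.3, 18.8 and 19.0 CPM in untreated cells and at 22.3, 13.5 and 15.8 CPM after the pre-dose. The untreated libraries had a mean of 19.0 ± 0.258 CPM (SD, n = 3), with the pre-dose replicate 1 library above them and the other pre-dose libraries below. In replicates 2 and 3 alone it fell by 0.35, with an interval of −0.53 to −0.17 and an adjusted p of 0.0295 (limma). The test of the difference between pairs gave 0.55 with an adjusted p of 0.11, and the authors' deposited table gave an adjusted p of 0.0836. Its RefSeq promoter holds the CHR letters from position 2 and CCAAT at 3 places.

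The rest of this group was not called by any fit of the pre-dose difference. KIF2A, a microtubule depolymerase with roles both in neurons and at spindle poles, was at 54.6, 55.9 and 55.8 CPM in untreated cells and at 54.9, 49.8 and 53.4 CPM after the pre-dose. KIF2A shares 9% of its exon length with IPO11 on the same strand. KIF26B was lower after the pre-dose in each pair, at 0.933, 1.42 and 1.70 CPM against 0.677, 1.31 and 1.15 CPM. KIF7, which controls Hedgehog signalling at the tip of the cilium, was at 1.37 ± 0.130 and 1.18 ± 0.243 CPM (SD, n = 3) and was also lower in each pair. KIF27, KIF9 and KIF6 were at 3.51 to 6.03, 2.75 to 3.79 and 1.14 to 1.65 CPM, with pair differences of both signs. In KIF27 both replicate 1 libraries, at 3.61 and 3.51 CPM, were below the other 4.

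Levels of different genes were compared per kilobase of exon. In untreated cells KIF20A was highest at 58.3 ± 7.80 CPM per kb (SD, n = 3), then KIF1C at 44.9 ± 2.38 and KIF5B at 44.4 ± 2.56. The ranges of KIF1C and KIF5B overlapped, so that their order is not distinct, while KIF20A lay above both in every untreated library. KIFC1 followed at 29.4 ± 1.88, KIF11 at 24.5 ± 2.06 and KIF2C at 24.2 ± 0.689 CPM per kb, the last 2 with overlapping ranges. KIF23 was at 18.2, KIF22 at 17.9, KIF3C at 16.2, KIFC3 at 15.1 and KIF4A at 14.0 CPM per kb. KIF18A, at 4.53, and KIF15, at 3.70, were the lowest of the mitotic kinesins. At the low end, KIF5C was at 0.323, KIF17 at 0.301, KIF7 at 0.274, KIF21B at 0.143, KIF6 at 0.117 and KIF26B at 0.0938 CPM per kb. Of the 33 neighbouring pairs in this order, 16 had overlapping untreated ranges.

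**Figure D4:**
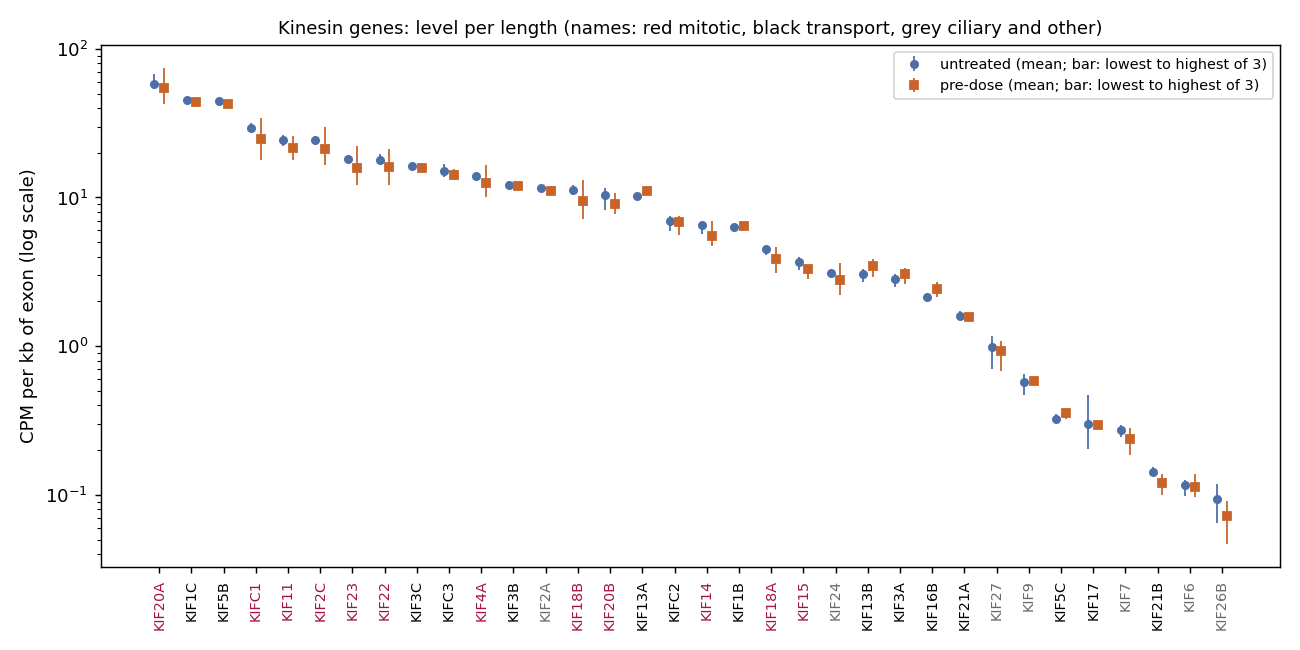
Mean level of each kinesin in CPM per kb of exon (vertical log axis) in untreated (blue circles) and pre-dose (orange squares) cells, with bars from the lowest to the highest of 3 libraries, in order of the untreated mean. Pre-dose bars are longer than untreated bars for most mitotic kinesins (red names), and KIF20A, KIF1C and KIF5B are the highest 3.

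Genes of proteins that work with the mitotic kinesins had the same directions. Of 15 listed partners, all measured, 15 were higher in the replicate 1 pair and lower in the other two, with medians of 0.22, −0.51 and −0.27. None passed the test over all 6 libraries (limma; none at an unadjusted p under 0.05), and 15 were lower in replicates 2 and 3 alone, where 3.47% of all genes were called lower. The test of the difference between pairs was passed by 12, where 0.83% of all genes were called higher. CENPE, itself a kinesin at the kinetochore whose symbol lies outside the naming rule, was at 46.7, 73.1 and 69.7 CPM in untreated cells and at 62.1, 51.0 and 53.9 CPM after the pre-dose. PRC1, which bundles the central spindle and recruits KIF4A, was at 270, 224 and 229 CPM and at 293, 174 and 186 CPM. RACGAP1, the partner of KIF23 in centralspindlin, fell by 0.42 in replicates 2 and 3 alone and TPX2, which holds KIF11 on the spindle, fell by 0.35, with adjusted p of 0.00117 and 0.00129 (limma). In the authors' deposited table CENPE (−0.37, adjusted p 0.0402) and NUSAP1 (−0.27, adjusted p 0.0485) were the 2 of 15 partners called. There 1.45% of all identifiers were called lower.

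Partners of the transport kinesins were read in the same way. Of 17 listed light chains and cargo adaptors, 15 were measured, 0 passed over all 6 libraries (limma; none at an unadjusted p under 0.05), and none was called in the authors' deposited table. In replicates 2 and 3 alone 3 of 15 were higher, where 2.89% of all genes were called higher, namely TRAK1 and FYCO1, which link mitochondria and late endosomes to kinesin, by 0.18 and 0.17, and MAPK8IP3. KLC1, a light chain of conventional kinesin, was at 178 ± 5.48 and 180 ± 6.54 CPM, and KIFBP at 83.2 ± 2.30 and 81.7 ± 10.0 CPM (SD, n = 3). Dynein, with its cofactor dynactin, is the motor that runs the opposite way. Of 22 listed dynein and dynactin genes, 20 were measured. None passed over all 6 libraries (limma; none at an unadjusted p under 0.05), and in replicates 2 and 3 alone DYNC1H1, the heavy chain, was higher by 0.16 while NDE1 and DYNLL1 were lower, against 2.89% and 3.47% of all genes. NDE1, which acts with dynein at mitosis, fell by 0.32 there (adjusted p 0.00407, limma) and was also called lower in the authors' deposited table (−0.30, adjusted p 0.0362). Like the mitotic kinesins, NDE1 was higher in the replicate 1 pair, with pair differences of 0.12, −0.34 and −0.30. Its unadjusted p over all 6 libraries was 0.181 (limma). MAPK8IP3 and DYNLL1 were named after their values were seen.

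Regulators of the mitotic genes were read beside them. CDKN1A, the p53 target that inhibits cyclin-dependent kinases, was at 162, 229 and 233 CPM in untreated cells and at 217, 573 and 472 CPM after the pre-dose. It was higher in all 3 pairs, by 0.42, 1.32 and 1.02, and the replicate 1 pair difference minus that of the other two was −0.75 (adjusted p 0.0189, limma, with its error again from the other 4 libraries alone). Its pre-dose replicate 1 library, at 217 CPM, lay below untreated replicates 2 and 3. Over all 6 libraries its difference was 0.92 (unadjusted p 0.0311, no call in limma). It was 1.17 in replicates 2 and 3 alone (adjusted p 2.27e-05, limma), and in the authors' deposited table it was 1.06 at an adjusted p of 0.0254. FOXM1, an activator of G2 and mitotic genes, was at 276, 211 and 213 CPM and at 276, 175 and 195 CPM, level in the replicate 1 pair and lower in the others. In replicates 2 and 3 alone it fell by 0.20 (adjusted p 0.0297, limma). LIN9 and MYBL2, members of the complexes that bind CHR promoters, fell by 0.55 and fell by 0.36 there (adjusted p 0.0241 and 0.00704, limma). With FOXM1 they were the 3 of 13 regulators called lower there, where 3.47% of all genes were called lower. Other listed members of these complexes, LIN37, LIN52, LIN54, RBBP4, RBL1 and RBL2, were not called there. With the trend in GC removed, the replicate 1 pair difference was −0.20 in MYBL2 and 0.02 in LIN9. LIN9 was the one regulator called lower in the authors' deposited table (−0.56, adjusted p 0.0388), where 1.45% of all identifiers were called lower. Of the 13 regulators, all measured, 0 passed over all 6 libraries and 2 had an unadjusted p under 0.05 (limma), as did 2.06% of all genes. The part of CDKN1A or the other regulators in the kinesin values was not tested.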

How the data were processed

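Per the submitters' processing notes, bcl2fastq, DRAGEN, edgeR and limma were used with build hg38. Versions, counting, strand setting and gene filter: not given in the sources used here. Values of log2 CPM per library were what the authors deposited, made with about 0.5 count added, beside their own log2 fold changes with p-values and scores, the last not used. Of 13773 rows, 77 repeated an identifier and the first was kept. Recovered counts were not whole, so limma 3.58.1 (R 4.3.3, trend) was fitted on log2(CPM + 1) (mean over libraries 1 CPM or more) in place of a count test, with Benjamini-Hochberg adjustment over all 13616 genes; the scripts were tested on simulated data. Intervals are 95% and cover the spread between libraries. The members and lists, and the tests by replicate, were chosen with earlier results of these data known. Named genes were all kinesins, set partners, and partners past an adjusted p of 0.05, up to 10 by the authors' p. Genes were matched to GENCODE 29 (13630 of 13696 identifiers). The replicate numbers, which come from the titles, were taken to pair the libraries. Deviations of same-numbered libraries from their group means had correlations of 0.664, 0.454 and 0.176 across genes. Untreated 3 with pre-dose 2 had 0.515, and untreated 2 with pre-dose 3 had 0.276. These values match the replicate 1 libraries only, and which of replicates 2 and 3 belong together rests on the titles alone. Alternatives were a replicate block, another pseudocount, filter, centring, voom without and with quality weights, single libraries left out, replicate sets alone and, chosen after seeing the data, GC correction.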

Additional observations from a re-analysis of the deposited data

How the results depend on the processing

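The number of kinesins past an adjusted p of 0.05 (limma) was 0 over all 6 libraries and stayed 0 with the replicate block, a pseudocount of 0.25 CPM, no filter, a filter at 5 CPM, centring on the median gene, voom, GC correction, and each library left out. The replicate block changed no call. Library quality weights gave 1 kinesin, a mitotic one. Replicates 2 and 3 alone gave 14, of which 11 were mitotic and 3 others, with and without GC correction. The mitotic median of −0.22 was 0.17 in the replicate 1 pair alone and 0.16 there after GC correction, was −0.46 in replicates 2 and 3 alone, and ran from −0.41 to −0.08 with single libraries left out. The transport median of −0.03 was 0.016 with quality weights, 0.012 in replicates 2 and 3 alone, 0.0027 there after GC correction, and −0.021 to 0.026 with single libraries left out. The 7 mitotic kinesins higher in replicate 1 became 11 without untreated replicate 1 and 4 without pre-dose replicate 1. The count of 8 in the test of the difference between pairs both rose and fell with single libraries of replicates 2 and 3 left out. The share of all genes called in those fits was not counted. KIF21A (−0.03) turned to 0.039 with quality weights, to 0.037 in replicates 2 and 3 alone and to 0.045 there after GC correction. With 1 library left out, 12 of 50 named genes turned sign. Their ranges were −0.11 to 0.23 in KIF17, −0.069 to 0.012 in KIF1C, −0.37 to 0.020 in KIF20A, −0.057 to 0.015 in KIF21A, −0.25 to 0.10 in KIF27, −0.084 to 0.026 in KIF3B, −0.12 to 0.032 in KIF6, −0.075 to 0.10 in KIF9, −0.14 to 0.093 in KIFC2, −0.13 to 0.026 in KIFBP, −0.0091 to 0.043 in KLC1 and −0.33 to 0.0026 in FOXM1. KIF20A, the one mitotic kinesin among them, turned without pre-dose replicate 2. The causes were not tested. Counting error weighs most on the kinesins near 1 CPM.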
